A study of Homo sapiens with 6 samples.

Results

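The miR-200 family was followed through 6 small RNA libraries made from exosomes of HCT116, a human colorectal cancer cell line. Its members were taken by name: every listed arm of miR-200a, miR-200b, miR-200c, miR-141 and miR-429, which came to 9 of the 2575 mature miRNA entries in the deposited count tables. All 9 had at least 1 count in some library. Of these, 7 had enough counts to be tested between groups, while miR-200c-5p and miR-141-5p did not. For the 3 libraries titled ETBF, the cells had spent 6 h with the enterotoxigenic form of the gut anaerobe Bacteroides fragilis, named for the toxin it makes, at a multiplicity of infection of 500. The 3 libraries titled untreated came from cells given the bacterial medium without the bacterium, and cells of both groups were at passage 16 to 19. The names of the deposited files give the opposite group in 6 of 6 libraries. Groups here follow the titles. Should the file names be the correct ones, each direction below turns round while sizes, errors and p-values stay. Nothing in the labels ties replicates to separate cultures, and the p-values therefore rest on a spread among libraries that may be technical.

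The miR-200 family is a set of related miRNAs that keeps epithelial cells epithelial. Its members repress ZEB1 and ZEB2, transcription factors that switch off E-cadherin, and the ZEB proteins in turn repress the miR-200 genes, so the family and its targets hold each other in check. A miRNA finds its targets mainly through its seed, bases 2 to 8 from the 5′ end, and each hairpin can give a 5p and a 3p arm, of which usually 1 is kept.

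Mature sequences are shown first because the comparisons below follow the seed, the arm and the locus. RefSeq (GRCh38.p14) held 8 of the 9 members. miR-141-5p was not matched. The seed is in capitals, and the 3p arms come first because they hold most of the counts. The prefix hsa, for human, is left off in the rest of the text.
hsa-miR-200b-3p: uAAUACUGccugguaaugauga
hsa-miR-200c-3p: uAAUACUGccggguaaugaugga
hsa-miR-429: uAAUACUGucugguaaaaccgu
hsa-miR-200a-3p: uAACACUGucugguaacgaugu
hsa-miR-141-3p: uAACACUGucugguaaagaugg
hsa-miR-200a-5p: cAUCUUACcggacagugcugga
hsa-miR-200b-5p: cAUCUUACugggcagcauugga
hsa-miR-200c-5p: cGUCUUACccagcaguguuugg

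The 3p arms fell into 2 seed groups, miR-200b-3p, miR-200c-3p and miR-429 in the first and miR-200a-3p and miR-141-3p in the second. Their seeds differed at 1 base, U4C from miR-200b-3p to miR-200a-3p, counted from the 5′ end. Of 2370 human mature miRNA names in the RefSeq table, 3 held the first seed (0.127%) and 2 held the second (0.0844%), all of them family members. Past the seed, miR-200b-3p and miR-200c-3p differed by U11G and A22G and by the extra last base of miR-200c-3p. miR-200a-3p and miR-141-3p were identical over their first 16 bases and differed by C17A and U22G. A read that ends before base 17 therefore fits both of those entries, and how the authors' counting treated such reads is not given in the sources used here. miR-200a-5p and miR-200b-5p shared a seed as well, whereas miR-200c-5p had A2G against miR-200a-5p and shared its seed with 1 name outside the family, miR-550a-3p, which held 3 counts over the 6 libraries.

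The hairpins sit in 2 polycistrons, each made as a single primary transcript. In GRCh38.p14, which is not the GRCh37.p5 build named in the submitters' processing notes, the arms of miR-200b, miR-200a and miR-429 span 1953 bases of the plus strand of chromosome 1, from miR-200b-5p to miR-429 (chr1:1167124-1169076). miR-200b-3p is at chr1:1167160-1167181, miR-200a-5p at chr1:1167878-1167899 and miR-200a-3p at chr1:1167916-1167937. Those of miR-200c and miR-141 span 474 bases of the plus strand of chromosome 12 (chr12:6963703-6964176), with miR-200c-3p at chr12:6963742-6963764 and miR-141-3p at chr12:6964155-6964176. In GENCODE release 29, MIR200C and MIR141 lie in an intron of the long non-coding RNA gene MIR200CHG. MIR200B, MIR200A and MIR429 lie inside no annotated host gene there.

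Libraries were shallow, with 200207 to 417321 counts, and 3 counts corresponded to 8.26 to 14.6 CPM (counts-per-million, scaled by the trimmed mean of M-values, TMM). A single entry, miR-148a-3p, took 26.3% to 51.1% of the counts. Entries whose sequences overlap other RNA classes (miR-7641, miR-6087, miR-1246 and miR-1290) took 16.1% to 28.3% in the titled untreated libraries and 0.531% to 0.927% in the titled ETBF libraries. The titled ETBF libraries were spread out among themselves, with miR-148a-3p at 33.1%, 42.6% and 51.1% and TMM factors of 1.19, 1.0 and 0.776 in replicates 1 to 3.

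**Figure D1:**
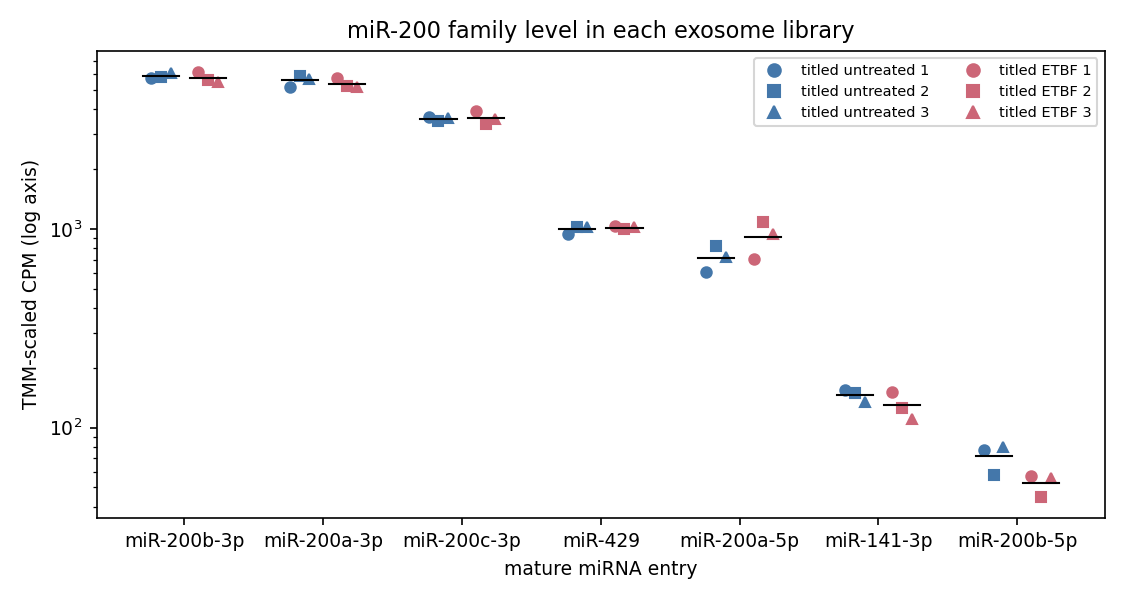
TMM-scaled CPM (log axis) of the 7 tested family members in each library, with points for libraries and black bars for group means (n = 3). The 3 leading 3p arms sit between 3387 and 6168 CPM and miR-200b-5p between 45.0 and 79.8 CPM, and miR-200a-5p is the entry in which titled ETBF replicates 2 and 3 stand above the other 4 libraries.

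All 6 libraries held the family at a moderate level. As bulk RNA they cannot tell fewer cells releasing a miRNA from less of it per cell. Its 9 entries together came to 3382, 6285 and 5452 counts in titled untreated replicates 1 to 3, and to 5310, 3664 and 5306 in titled ETBF replicates 1 to 3. Values below keep that order. That was 1.69%, 1.70% and 1.86% of the titled untreated counts and 2.12%, 1.65% and 1.27% of the titled ETBF counts, with means of 1.75% ± 0.0935 and 1.68% ± 0.425 (SD, n = 3). The groups overlapped. Titled ETBF replicate 3, in which miR-148a-3p took the most, had the lowest family share, and titled ETBF replicate 1 had the highest. On the TMM scale the summed level ran from 16404 to 17408 CPM in the titled untreated libraries and from 16385 to 17829 CPM in the titled ETBF libraries.

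miR-200b-3p and miR-200a-3p, neighbours on chromosome 1 with different seeds, were the most abundant members. miR-200b-3p, a main repressor of the ZEB factors, stood at 5767, 5810 and 6089 CPM in the titled untreated group and at 6168, 5618 and 5521 CPM in the titled ETBF group, and ranked 20th by mean CPM among all entries. miR-200a-3p stood at 5204, 5912 and 5709 CPM and at 5768, 5217 and 5163 CPM, and ranked 22nd. The ranges of the 2 groups overlapped for both miRNAs. miR-200a-3p held 0.902 to 1.02 times the counts of miR-200b-3p within a library and exceeded it in 1 of 6 libraries, titled untreated replicate 2, so these neighbours in the order did not differ beyond their spread.

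miR-200c-3p, the leading product of the chromosome 12 locus and the family member best known for holding back epithelial-mesenchymal transition (EMT), came next, at 3648, 3514 and 3630 CPM without and 3939, 3387 and 3557 CPM with titled ETBF treatment. It was below both leading members in 6 of 6 libraries. miR-429, the last hairpin of the chromosome 1 transcript and a seed partner of miR-200b, stood at 945.8, 1022 and 1028 CPM and at 1031, 994.0 and 1025 CPM. Groups overlapped for each of these miRNAs, and for miR-429 titled untreated replicate 1 was the lowest of the 6 libraries.

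The other members were lower and noisier. miR-200a-5p, the less abundant arm of its hairpin, stood at 606.3, 823.4 and 724.8 CPM (titled untreated) and at 708.5, 1088 and 941.8 CPM (titled ETBF). It was below miR-429 in 5 of 6 libraries and above it in titled ETBF replicate 2, so this pair of neighbours was not separated. miR-141-3p, which shares its transcript with miR-200c and its seed with miR-200a, stood at 155.2, 148.7 and 134.1 CPM and at 151.1, 125.9 and 111.2 CPM. miR-200b-5p, at 77.6, 57.8 and 79.8 CPM and at 57.1, 45.0 and 55.6 CPM, was below miR-141-3p in 6 of 6 libraries.

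The last pair of members was close to the floor of 3 counts. miR-141-5p had 0, 5 and 4 counts in the titled untreated replicates against 2, 1 and 3 in the titled ETBF replicates. miR-200c-5p had 2 counts in titled untreated replicate 2 and 0 in the other 5 libraries. A difference between the groups was not detectable at this depth for either.

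**Figure D2:**
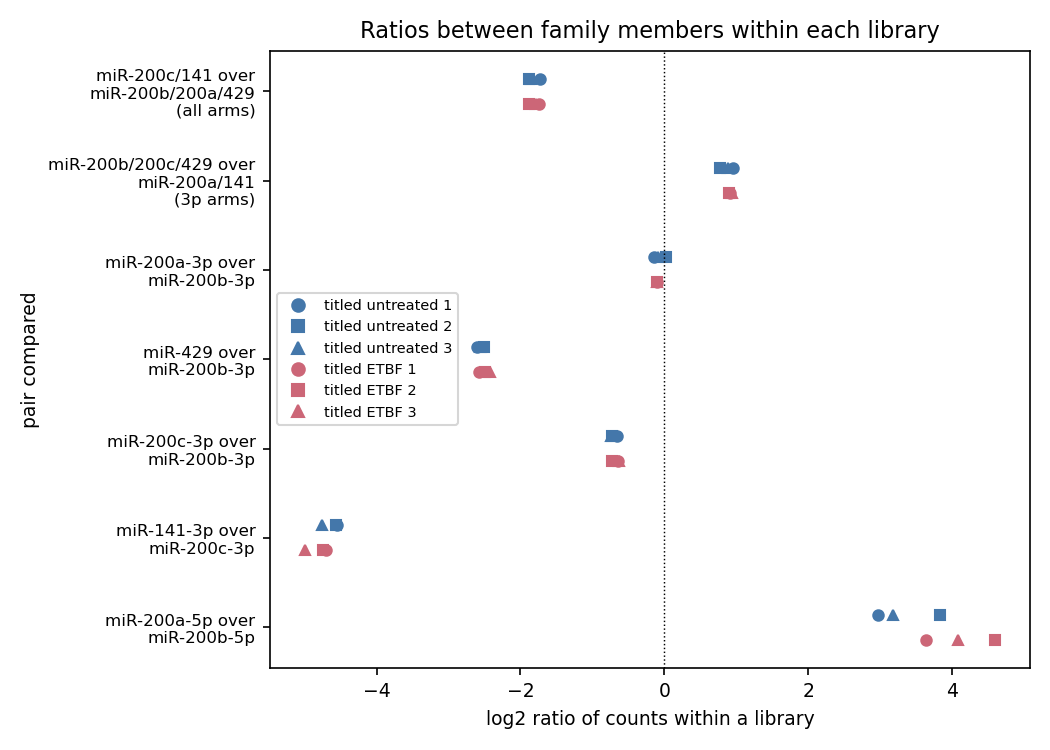
log2 ratio of counts within a library for the polycistrons, the seed groups and single pairs, with 1 point per library (3 titled untreated, 3 titled ETBF). Ratios of abundant 3p arms keep within narrow bands in both groups, and the ratio of the 5p arms spreads most, from 7.81-fold to 24.2-fold.

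The chromosome 1 polycistron gave the larger part of the family's counts. Its 5 entries held 77.9% ± 1.0 of the family's counts in the titled untreated and 77.7% ± 0.833 in those titled ETBF (SD, n = 3), and the 4 entries of the chromosome 12 polycistron held the rest. Counts from chromosome 1 were 3.31, 3.70 and 3.61 times those from chromosome 12 in the titled untreated replicates, and 3.35, 3.69 and 3.46 times in the titled ETBF replicates. The ratio overlapped between the groups, with a mean log2 ratio of chromosome 12 to chromosome 1 of -1.82 ± 0.08 and -1.81 ± 0.07 (SD, n = 3). As these ratios are taken within a library, no scaling between libraries enters them. The 8 entries with a matched sequence are 22 or 23 bases long, and the length of miR-141-5p was not available. All entries were compared as counts without a correction for length.

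Within a polycistron the hairpins were far from even. miR-200b-3p held 5.39 to 6.10 times the counts of miR-429. miR-200c-3p held 23.5 to 32.0 times the counts of miR-141-3p, the widest gap between the main arms of a shared transcript. That ratio was 23.5, 23.6 and 27.1 in the titled untreated replicates against 26.1, 26.9 and 32.0 in the titled ETBF replicates, so the groups overlapped. Across the loci, miR-200b-3p held 1.55 to 1.68 times the counts of its near-identical seed partner miR-200c-3p, in 6 of 6 libraries. The level of miR-141-3p can depend on how reads shared with miR-200a-3p were assigned, and miR-200a-3p held 33.5 to 46.4 times its counts.

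The seed groups were closer to each other than the loci were. Counts of miR-200b-3p, miR-200c-3p and miR-429 together were 1.93, 1.71 and 1.84 times those of miR-200a-3p and miR-141-3p in the titled untreated replicates, and 1.88, 1.87 and 1.92 times in the titled ETBF replicates. The mean log2 ratio was 0.87 ± 0.09 and 0.92 ± 0.02 (SD, n = 3), and the titled ETBF values lay inside the titled untreated range. The seed group with miR-200b thus made up 59.8% to 63.2% of the family's counts and the seed group with miR-200a 32.2% to 35.0%. The second group was almost all miR-200a-3p, since miR-141-3p made up 0.678% to 0.946% of the family's counts.

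**Figure D3:**
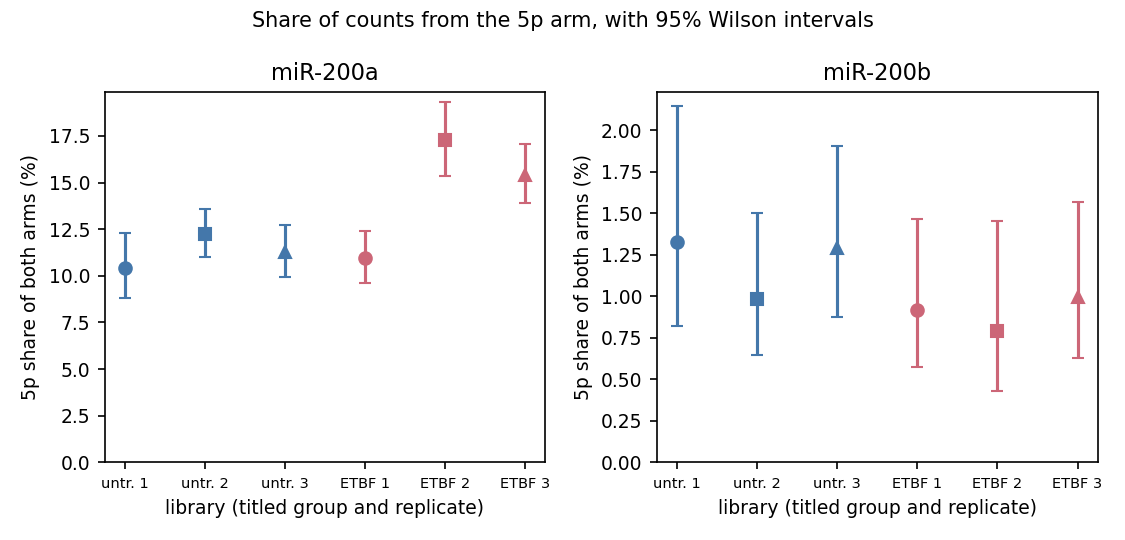
Share of a hairpin's counts that came from its 5p arm (percent), for miR-200a and miR-200b in each library, with 95% Wilson intervals. The 5p share of miR-200a is 15.4% and 17.3% in titled ETBF replicates 3 and 2 and 10.4% to 12.2% in the other 4 libraries, and that of miR-200b is under 1.5% in 6 of 6 libraries.

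The 3p arm dominated in each of the 4 hairpins with both arms listed, but to different degrees. Over all 6 libraries the 5p arm held 1409 of 10967 counts of miR-200a (12.8%), 15 of 252 of miR-141 (5.95%), 107 of 10187 of miR-200b (1.05%) and 2 of 6245 of miR-200c (0.0320%). The arms of miR-200a and miR-200b share their 5p seed and their transcript, yet miR-200a-5p held 7.81 to 24.2 times the counts of miR-200b-5p. In the titled untreated libraries the 5p share of miR-200a was 10.4% (95% Wilson interval 8.83% to 12.3%), 12.2% (11.0% to 13.6%) and 11.3% (9.96% to 12.7%). In the titled ETBF libraries it was 10.9% (9.62% to 12.4%), 17.3% (15.4% to 19.3%) and 15.4% (13.9% to 17.1%).

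Titled ETBF replicates 2 and 3 were above the other 4 libraries beyond counting error, while titled ETBF replicate 1 lay within the titled untreated range, so the groups overlapped (mean 11.3% ± 0.896 and 14.5% ± 3.25, SD, n = 3). For miR-200b the 5p share was 0.985% to 1.33% in the titled untreated and 0.794% to 0.997% in the titled ETBF libraries, with overlapping Wilson intervals. For miR-200c, 0 counts of the 5p arm among 752 to 1173 counts of the hairpin allow a share of up to 0.256% to 0.399% in the libraries without a count, taken as 3 counts of the total, and the upper Wilson bounds there were 0.326% to 0.508%. These intervals and limits cover counting error only, as reads without molecular identifiers are not independent molecules.

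**Figure D4:**
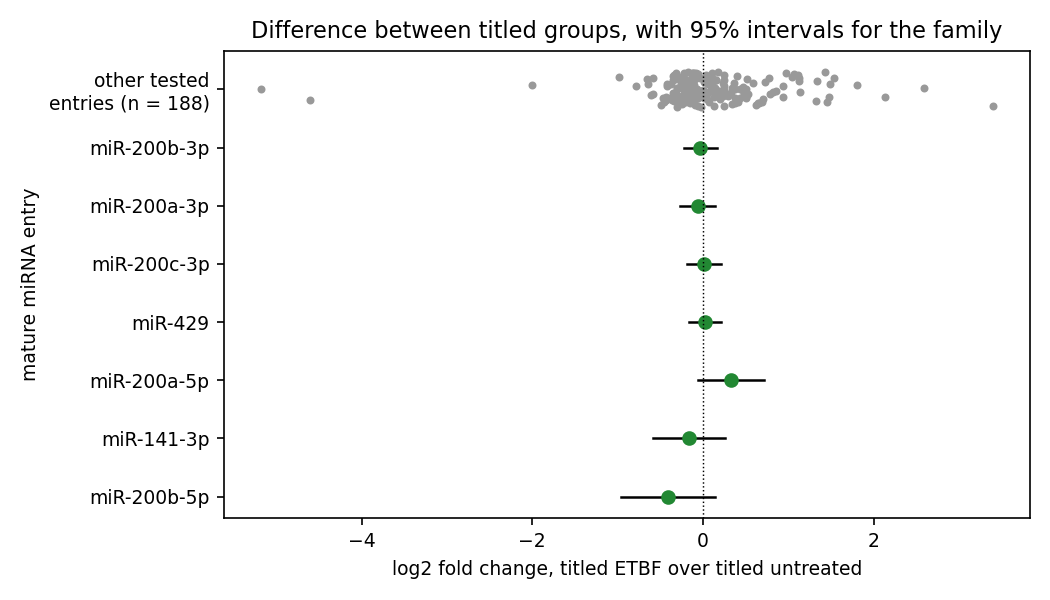
log2 fold change of titled ETBF over titled untreated for the 7 tested family members, with 95% intervals, beside the other 188 tested entries (grey points, no intervals). The 4 most abundant members lie within 0.06 of 0 and the intervals of all 7 include 0.

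Between the titled groups no family member passed the test. By edgeR's quasi-likelihood test with Benjamini-Hochberg adjustment over 195 entries, 0 of 7 tested members had an adjusted p under 0.05, against 14.4% of all tested entries. By direction, 0 members were higher in the libraries titled ETBF, against 10.8% of all tested entries, and 0 were lower, against 3.59%. At an unadjusted p under 0.05 the counts were 0 of 7 members and 33.8% of all tested entries. DESeq2 and limma-voom also called 0 members, against 29 and 25 of the 195 tested entries. The median log2 fold change was -0.03 over the 7 members and -0.03 over the 195 entries, with 3 members above 0 and 4 below. The highest and lowest CPM of the groups failed to overlap for 1 of 7 members, miR-200b-5p, which was lower in the libraries titled ETBF, and for 39.0% of all tested entries, 19.5% in that direction.

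Under TMM scaling the leading 3p arms were measured precisely enough to bound a difference. The log2 fold changes, each with an SE of 0.09, were -0.03 for miR-200b-3p, -0.06 for miR-200a-3p and 0.01 for miR-200c-3p. Their adjusted p by edgeR were 0.810, 0.652 and 0.898. miR-429 had 0.02 (SE 0.08, adjusted p = 0.847). The 95% intervals, from the same fit, reached from 0.857-fold to 1.12-fold for miR-200b-3p and from 0.831-fold to 1.11-fold for miR-200a-3p. Those of miR-200c-3p and miR-429 reached from 0.881-fold to 1.16-fold and from 0.891-fold to 1.16-fold. The sign of each of these 4 values changed with at least 1 other scaling of the libraries, so none has a direction here. Scaled on the muscle and liver entries described below, they were 0.19, 0.16, 0.23 and 0.24 in the order miR-200b-3p, miR-200a-3p, miR-200c-3p and miR-429. Each was above the upper end of its interval, though none passed, so the intervals hold for TMM scaling only.

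The rarer members left more room. For miR-141-3p the fitted log2 difference was -0.17 (SE 0.19, adjusted p = 0.542 by edgeR) and its interval ran from 0.664-fold to 1.19-fold. miR-200b-5p, with 10 to 25 counts a library, had -0.41 (SE 0.24, adjusted p = 0.315) and an interval from 0.514-fold to 1.11-fold. Its 3 titled ETBF values were below its 3 titled untreated values, with 57.1 CPM against 57.8 CPM at the closest. The edgeR p of miR-200b-5p before adjustment, 0.157, was larger than its SE alone would give, so its interval may be too narrow. miR-200a-5p, with 125 to 305 counts a library, had 0.33 (SE 0.17, adjusted p = 0.210) and an interval from 0.962-fold to 1.64-fold. Without titled ETBF replicate 1 miR-200a-5p had 0.45 and passed (edgeR adjusted p = 0.0128, against 0.0128 to 0.469 over all settings tried), 1 of 2 settings among 17 in which it did. In that setting 59 of 210 tested entries passed, against 28 of 195 in the main one.

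**Figure D5:**
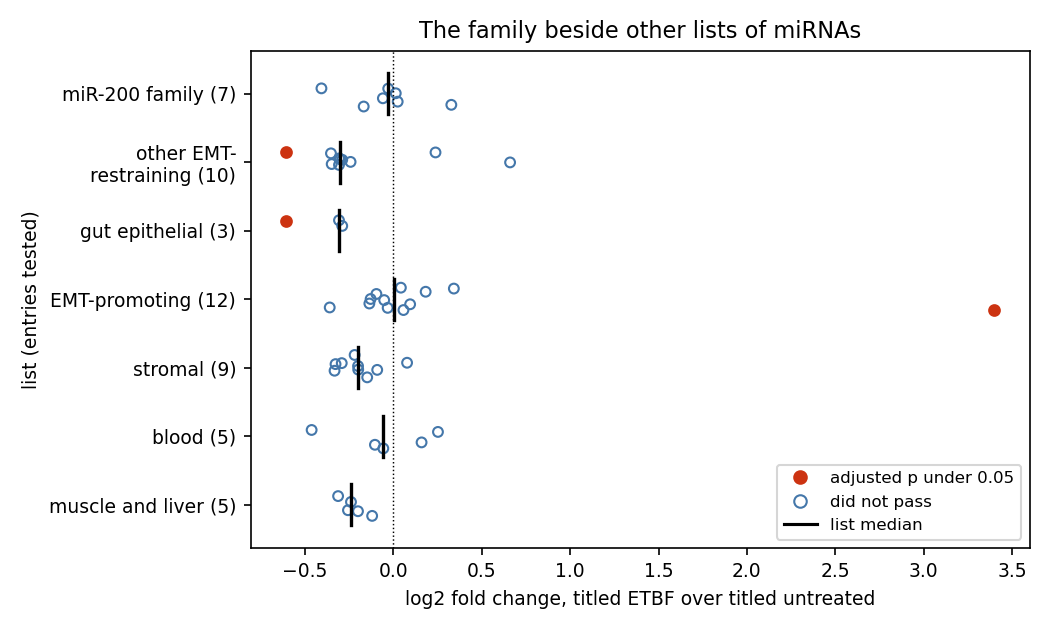
log2 fold change of titled ETBF over titled untreated for the tested entries of the family and of 6 other lists, filled where the adjusted p was under 0.05, with bars at list medians. The family's median is at -0.03, the 3 gut epithelial entries lie below 0, and the point farthest to the right is miR-9-3p, whose titled untreated counts are 0 to 6.

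Other miRNAs with a known part in epithelial identity were set beside the family by counts, and no test compared the lists. Values of these and the other lists below are for TMM scaling only, as the other settings did not follow single entries outside the family. Scaled on the muscle and liver entries, the median of all tested entries moved from -0.03 to 0.19, so the distance of a list from 0 depends on the scaling. Of 10 tested entries from other miRNAs reported to restrain EMT, 1 was lower in the libraries titled ETBF (3.59% of all tested entries were) and 9 did not pass, with a median log2 fold change of -0.30 against -0.03 over all tested entries. The one that fell was miR-375, an epithelial and endocrine miRNA (log2 fold change -0.61, SE 0.17, edgeR adjusted p = 0.0432). The most abundant were miR-203a, which restrains stem-cell programmes in stratified epithelium, at -0.31 (SE 0.11, adjusted p = 0.0838), and miR-192-5p, a gut epithelial miRNA, at -0.31 (SE 0.09, adjusted p = 0.0587). The 2 members of this list above 0, named after their values were seen, were miR-101-3p at 0.24 (adjusted p = 0.202) and miR-34c-5p at 0.66 (adjusted p = 0.271), and neither passed. In the gut epithelial list, whose 3 tested entries also belong to the previous list, 1 of 3 tested entries was lower, against 3.59% of all tested entries, 2 did not pass, and the median was -0.31. miR-194-5p, co-transcribed with miR-192, was at -0.29 (SE 0.09, adjusted p = 0.0666).

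Of 12 tested entries from miRNAs reported to favour mesenchymal transition or to act against miR-200, 1 was higher, against 10.8% of all tested entries, and 11 did not pass, with a median of 0.0046. The higher entry, miR-9-3p, had 3, 6 and 0 counts in the titled untreated replicates against 27, 15 and 54 in the titled ETBF replicates. It entered the test only through the group where it was high, so its call is given as a description (edgeR adjusted p = 0.00705), and its fitted fold, from 4.0 to 27.9 at 95%, is poorly fixed. The more abundant arm, miR-9-5p, which targets E-cadherin and was added after its value was seen, was at 0.34 (adjusted p = 0.210) with overlapping groups. The most abundant of this list, miR-21-5p, which is raised in many tumours, was at -0.03 (SE 0.12, adjusted p = 0.851). miR-103a-3p, which lowers Dicer and through it miR-200, was at -0.14 (SE 0.08, adjusted p = 0.282).

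Markers of other cell types were present in both groups. For comparison with the lists below, 14.4% of all 195 tested entries were called, 101 were below 0 and their median was -0.03. The summed level of 7 muscle and liver entries was 25177 to 26284 CPM in the titled untreated and 20433 to 23561 CPM in the titled ETBF libraries, with 0 of 5 tested entries past the threshold, all 5 below 0 and a median of -0.24. Its most abundant entries were miR-1 (-0.20, SE 0.11) and miR-122-5p (-0.26, SE 0.10). Stromal entries summed to 15446 to 17389 and 13228 to 14554 CPM, with 0 of 9 past the threshold, 8 below 0 and a median of -0.20. miR-199a-3p (-0.20, SE 0.09) and miR-143-3p (-0.15, SE 0.13) led it. Blood entries summed to 683.3 to 757.3 and 544.2 to 719.5 CPM, with 0 of 5 past the threshold and a median of -0.06, led by miR-142-5p (-0.46, SE 0.17) and miR-486-5p (-0.10, SE 0.24). Gut epithelial entries summed to 17227 to 17989 and 13462 to 15341 CPM. Every listed muscle, liver and stromal entry had a count in some library, and miR-150-3p of the blood list and miR-215-3p of the gut list were at 0 in all 6. By their titles all 6 libraries came from exosomes of the HCT116 line, so muscle, liver, stromal or blood cells were not part of the design. Where these miRNAs came from, and whether that source added to the family's values, was not tested.

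Correlations across the 6 libraries had little variation to describe, as the summed level of the family ran only from 16385 to 17829 CPM. They therefore cannot show whether the loci vary together. Pearson's r between the log2 CPM of the polycistron sums was 0.442 over 6 libraries, as a description of points that share a scaling factor. The r of miR-200b-3p with miR-200c-3p and with miR-200a-3p was 0.753 in both cases, and that of miR-200a-5p with miR-200a-3p was -0.289. The tested entries outside the family most like the chromosome 1 sum were miR-361-5p (r = 0.863), miR-21-5p (0.859) and miR-22-3p (0.853). Those most like the chromosome 12 sum were miR-93-5p (0.838), miR-214-3p (0.830) and miR-206 (0.816). With 188 entries searched over 6 libraries, such values describe these libraries only.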

How the data were processed

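Small RNA libraries were made from exosomes collected by centrifugation of conditioned medium, and RNA extracted with Trizol, of which 100 ng went into each library, per the labels' protocols. The tools were Trimmomatic, FastQC and featureCounts on build GRCh37.p5, per the submitters' processing notes. Not given in the sources used here are tool versions, the aligner and the treatment of reads with several positions. Each deposited file lists raw counts by mature miRNA name, not normalised.

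From these counts, entries were kept by edgeR's filterByExpr (minimum count 10), which left 195 entries with at least 99.6% of each library's counts. TMM gave the scaling and edgeR's quasi-likelihood test, taken as two-sided, gave p-values, adjusted by Benjamini-Hochberg with a call under 0.05. CPM are counts over the TMM-scaled library total. SE was obtained by dividing the size of the log2 fold change by the square root of F, and 95% intervals use the fit's total degrees of freedom. Sums, shares and ratios over members were described without a test. Sequences and their positions were matched by name to RefSeq.

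The members and the other lists were chosen with earlier results of these data known. Named entries were all family arms, the 2 most abundant and all called entries of each other list, and the 3 entries most correlated with each polycistron. In the list overlapping other RNA classes, 3 of 3 tested entries were lower in the titled ETBF libraries, against 3.59% of all tested entries (log2 fold change -5.18 for miR-7641, -4.61 for miR-6087 and -2.00 for miR-1246). Alternatives were other scalings, filters and tests, the replicate number as a block, and each replicate left out. Scripts were tested on simulated data. Tests ran in edgeR 4.0.16, DESeq2 1.42.0 and limma 3.58.1 under R 4.3.3, and intervals of shares in SciPy 1.17.1.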

Additional observations from a re-analysis of the deposited data

How the results depend on the processing

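Over 17 settings, the main one included, 6 of the 7 tested members never passed. miR-200a-5p passed in 2: with the replicate number as a block (log2 fold change 0.34, edgeR adjusted p = 0.0361) and without titled ETBF replicate 1. There 1 of 7 members was called, beside 38 of 195 and 59 of 210 tested entries, and 0 members were called in the other settings. miR-200a-5p kept a positive and miR-200b-5p a negative log2 fold change in each of the 17. With library size only, miR-429 and miR-200c-3p turned to -0.034 and -0.034. With upper-quartile scaling miR-200b-3p and miR-200a-3p turned to 0.036 and 0.0088, with no filter miR-200c-3p to -0.00014, with the 10 CPM filter to -0.0090, and without the entries overlapping other RNA classes miR-200b-3p to 0.019. Scaling on muscle and liver entries, which moved the median of all tested entries to 0.19, gave 0.19, 0.16 and 0.040 for miR-200b-3p, miR-200a-3p and miR-141-3p. With that scaling miR-200a-5p, miR-200c-3p and miR-429 had 0.55, 0.23 and 0.24 (edgeR adjusted p = 0.0777, 0.0777 and 0.0915), and miR-200b-5p had -0.20. There 3 of 7 members had an unadjusted p under 0.05, as did 73 of 195 tested entries, and 0 members passed. Leaving out single replicates gave -0.11 to 0.027 for miR-200b-3p, -0.14 to 7.2e-05 for miR-200a-3p, -0.081 to 0.097 for miR-200c-3p, -0.017 to 0.075 for miR-429, and 0 to 1 members called.

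Calls over all entries were 28 (75% higher), against 51 with no filter, 50 (92% higher) scaled on muscle and liver entries, 42 (85.7% higher) with upper-quartile scaling, 34 (88.2% higher) without the entries overlapping other RNA classes, 38 with the replicate block and 17 to 59 without single replicates: 59 (64.4% higher) without titled ETBF replicate 1, and 17 when either titled untreated replicate 3 or titled ETBF replicate 3 was left out. The cause was not tested. Same-numbered libraries of the groups correlated in their deviations by 0.177, 0.103 and 0.0523, against -0.155 to 0.0734 for other pairs. As 1 pair was under 0.1 and the labels name no shared batch, the numbers were not taken as pairs, although 5 of 6 libraries correlated best with their own number, a hint from the data and not the design.

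Without the entries overlapping other RNA classes in the total, the family's share of counts was 2.22% (range 2.03% to 2.35%) in the titled untreated libraries. In the titled ETBF libraries it was 1.69% (1.28% to 2.14%). Without miR-148a-3p it was 2.61% (2.29% to 2.79%) and 2.88% (2.60% to 3.17%), and the groups overlapped in both settings. With 3p arms only the polycistron log2 ratio was -1.74 and -1.70, and without miR-429 the seed group log2 ratio was 0.72 and 0.77, each moved by the entries left out. Leaving out replicates of arm shares was added after the data were seen. Depth limits miR-141-5p, miR-200c-5p and miR-200b-5p most.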
